A study of Mus musculus with 18 samples.

Results

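Proximal T-cell receptor signalling was followed through 10 genes: Zap70, Lat, Lcp2, Themis, Prkcq, Plcg1, Fyn, Ptpn22, Rasgrp1 and Sh2d1a. Every probe set that the array annotation assigns to 1 of these symbols alone was taken, which gave 22 probe sets among 34945 with a single symbol, and 10 genes among 18193. Of the 22, 21 were bright enough to be tested, and the 1 left out was a dim probe set of Plcg1. The arrays came from 18 mice: 5 controls, 5 CD4Cre-Ctnnbex3 mice before transformation and 8 mice of that genotype with lymphoma, with 1 array per mouse. RNA was made from whole thymocytes or from tumour masses, so each value averages over all cells of a sample. The design text calls the controls LckCre mice and the sample labels call them wild type, and they are called controls here. In CD4Cre-Ctnnbex3 mice the Cre recombinase is driven by Cd4 regulatory sequences and acts on a Ctnnb1 allele whose exon 3 can be removed, which leaves a stabilised β-catenin in T-lineage cells. The design text describes the mice of each group as independent, and the age of the mice is not given in the sources used here.

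When the T-cell receptor is engaged, Src-family kinases phosphorylate the CD3 and zeta chains, and the kinase ZAP-70 docks on them. ZAP-70 then phosphorylates the adaptors LAT and SLP-76, on which phospholipase C gamma is assembled and activated. Its products open the calcium route and recruit protein kinase C theta and the Ras activator RasGRP1, and in the thymus the strength of this signal decides between death, selection and further maturation.

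Compared with controls, thymocytes of CD4Cre-Ctnnbex3 mice before transformation had, at each gene's brightest probe set, higher signals of Zap70, Lcp2, Prkcq and Rasgrp1 and a lower signal of Fyn. In lymphomas all 10 genes were lower than before transformation, by 1.29-fold for Zap70 to 3.89-fold for Themis at each gene's brightest probe set. Against controls 8 of the 10 were lower in lymphomas, and Zap70 and Rasgrp1 did not pass the test. These 3 comparisons share groups, so their values stand side by side and are not independent of each other. The values below are log2 of the deposited signal. Each gene is represented by its brightest probe set on average, differences are given with the standard error of the limma fit, and adjusted p-values are limma's with Benjamini-Hochberg adjustment over all 24364 probe sets tested.

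**Figure D1:**
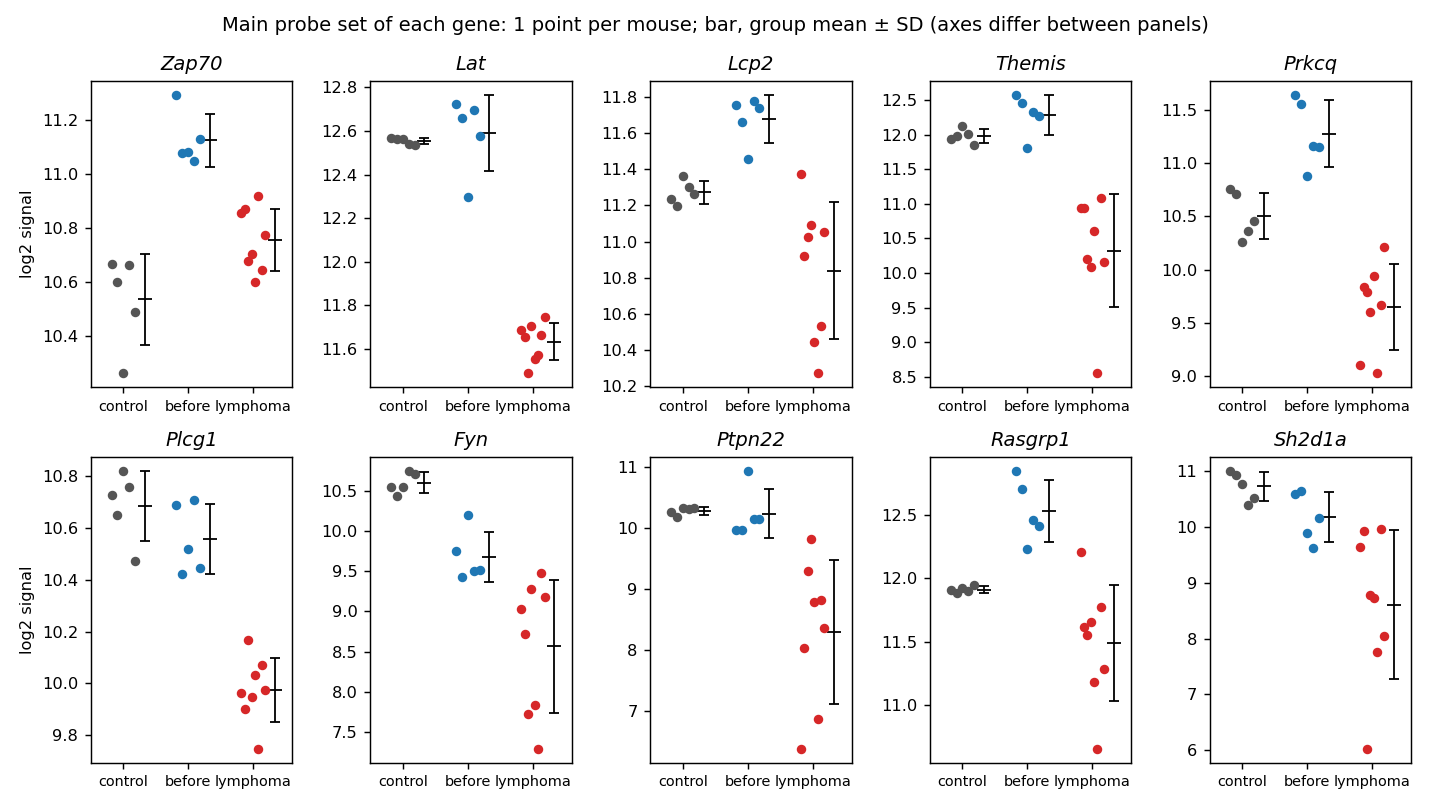
Log2 signal of the brightest probe set of each gene in the 18 mice, 1 point per mouse, with the group mean ± SD beside the points (vertical axes differ between panels). Lat and Plcg1 lie lower in all 8 lymphomas than in any other mouse, Zap70 lies highest before transformation, and the lymphomas are widely spread for Ptpn22 and Sh2d1a.

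Before transformation, 13 of the 21 probe sets passed an adjusted p of 0.05 against controls, 11 higher and 2 lower, where 11.5% of all probe sets tested did so (4.77% higher and 6.73% lower). By gene, 4 were higher, 1 was lower and 5 did not pass, beside 10.8% of 14019 genes called (4.47% higher and 6.33% lower). In 10 probe sets all 5 mice before transformation lay above all 5 controls and in 2 they lay below them, which held for 4.61% and 6.34% of all probe sets. The median log2 difference over the 21 probe sets was 0.43, and over all probe sets it was -0.02. The median SD over all probe sets was 0.20 in controls, 0.24 before transformation and 0.31 in lymphomas. When all 3 groups shared 1 estimate of the spread, 6 of the 13 calls were made, 5 higher and 1 lower, and those at the brightest probe sets of Lcp2 (adjusted p = 0.174), Fyn (adjusted p = 0.131) and Rasgrp1 (adjusted p = 0.0655) were lost.

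In lymphomas, 17 of the 21 probe sets were lower and 1 was higher than before transformation, where 36.2% of all probe sets were called, 16% higher and 20.2% lower. All 10 genes were lower, beside 34.7% of genes called and 18.5% called lower, and for 8 of them the 8 lymphomas lay below all 5 mice before transformation, as for 8.85% of genes. Over probe sets, 14 of the 21 did not overlap and were lower, against 9.96% of all. The median difference was -0.96 over the 21 probe sets and -0.04 over all. Against controls, 13 of the 21 probe sets were lower in lymphomas and 1 was higher, beside 40.9% called among all probe sets (16.9% higher and 23.9% lower). By gene, 8 of the 10 were lower, where 40% of genes were called and 22.7% were lower, and 7 did not overlap with the controls and were lower, beside 12% of genes. The median difference was -0.71 over the 21 probe sets and -0.05 over all. Of all probe sets called, 44.2% were higher in lymphomas than before transformation and 41.4% higher than in controls, and after quantile normalization these shares were 55.8% and 55.3%, while 16 and 11 of the 21 probe sets were then lower and 1 and 4 higher.

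A limit on the comparison of lymphomas with mice before transformation is the sex of the mice. By Xist and Y-linked signals, all 5 mice before transformation read as male, as did controls 3 to 5 and lymphoma 3, while controls 1 and 2 and 6 of the 8 lymphomas read as female and lymphoma 4 carried both signals. With sex as a factor and lymphoma 4 left out, a fit in which lymphoma 3 is the only male tumour, 3 of the 18 calls between lymphomas and mice before transformation stayed past the threshold, those of Lat, Sh2d1a and 1 Themis probe set, and all 18 kept their direction. Sh2d1a was then at -4.16 (adjusted p = 0.00909) against -1.57 without the factor, and lymphoma 3, on which that fit's tumour value among males rests, had the lowest Sh2d1a signal of the 8. The same factor left 12 of 13 and 10 of 14 calls in the comparisons with controls. The arrays differed in the signal of spike-in control probe sets as well. Its mean log2 value lay between 9.31 and 9.90 in lymphomas 3 to 8. On all other arrays, with lymphomas 1 and 2 among them, it lay between 10.10 and 10.65. The part of this difference in the results was not tested.

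**Figure D2:**
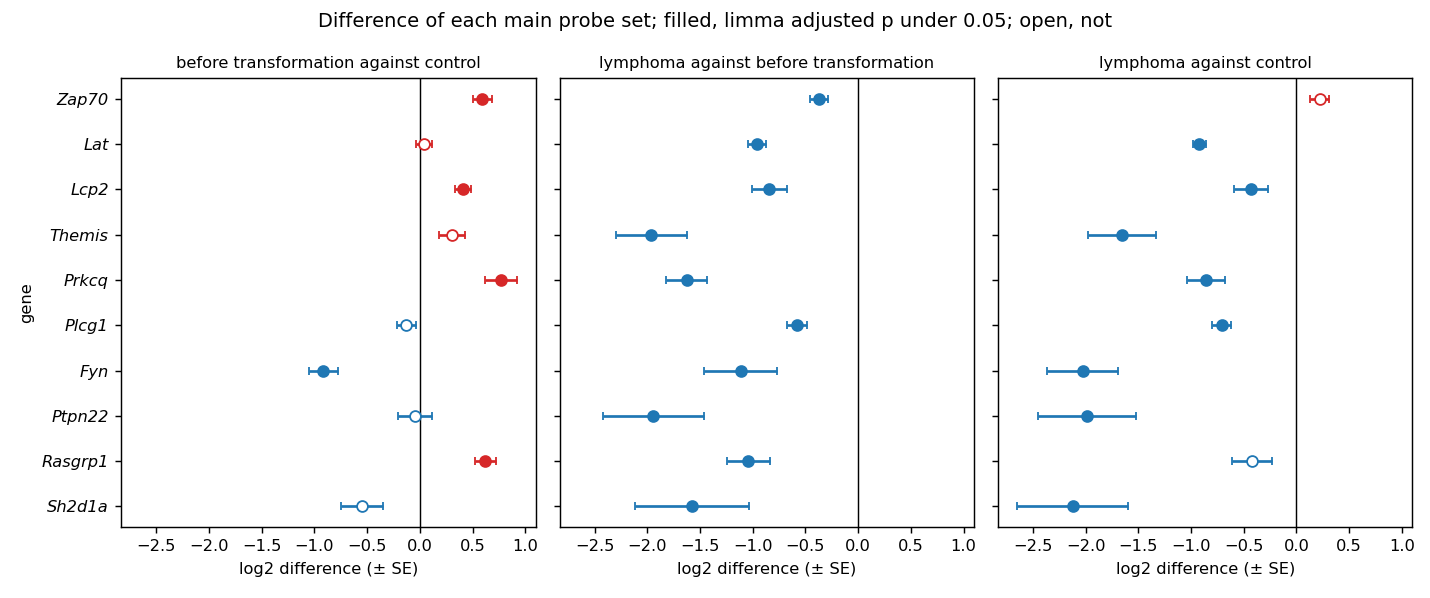
Log2 difference ± SE of each gene's brightest probe set in the 3 comparisons; filled points passed a limma adjusted p of 0.05 and open points did not, with red above 0 and blue below. All 10 points are filled and below 0 for lymphomas against mice before transformation, and in the comparison of mice before transformation with controls Fyn alone is filled and below 0.

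Markers of the T lineage and of other cells also differed between the groups, and in bulk samples fewer cells of a type and less RNA per cell cannot be told apart. The summed signal of 8 T-lineage markers lay between 36884 and 40891 in controls, between 28104 and 38148 before transformation and between 11582 and 20444 in lymphomas. Of these 8 markers, 5 were lower before transformation than in controls, 6 were lower in lymphomas than before transformation and 7 lower in lymphomas than in controls, and none was higher. Among all genes, 6.33%, 18.5% and 22.7% were called lower in these comparisons. Summed myeloid markers (8 measured) reached 4110 in controls, 5231 before transformation and 19130 in lymphomas, where the lowest tumour had 4850. The myeloid markers did not all move together. In lymphomas 6 were higher than in controls and 2, Csf1r and Cd14, were lower, beside 17.3% and 22.7% of all genes. Before transformation 1 of the 8 was called, Itgam (3.73, higher), beside 10.8% of all genes. The B-cell sum (7 measured) lay between 632 and 970 in 4 of the 5 mice before transformation and at 2626 in mouse 3, and it was highest among lymphomas in number 3, at 6151. Granulocyte markers (7 measured) summed to between 3217 and 9828 in controls, 1410 and 2277 before transformation and 1699 and 4253 in lymphomas. For natural killer and gamma delta T cells (7 measured) the ranges were 2030 to 3214, 1527 to 2160 and 909 to 3140, and for erythroid cells (5 measured) 806 to 1108, 855 to 1075 and 646 to 1329. Of the 6 natural killer and gamma delta T markers tested, 2 were higher and 3 lower in lymphomas than in controls, beside 17.3% and 22.7% of all genes. Thymic epithelium (8 measured) gave 1617 to 3076, 1627 to 3522 and 1332 to 1790, and stroma and vessels (8 measured) 1318 to 1554, 1489 to 2269 and 1214 to 5818. Before transformation Camp and Pdgfrb were at the floor in all 5 mice, and no other marker was at the floor in every mouse of a group. The part of these shifts in the results was not tested.

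Stabilised β-catenin acts with TCF and LEF proteins, so the promoters of the genes were searched for the letters these proteins are known to bind. RefSeq windows (GRCm38.p6) of 300 bases, 250 before and 50 after a start site, were matched for 9 of the 10 genes. There were 13 windows in all, and not every start site is the first base of its gene. The gene Ptpn22 begins at base 103856575 of chromosome 3, and its windows lie inside it, from base 103859545 on. The TCF/LEF letters searched on both strands had 4 forms. CTTTGAA was the first form and CTTTGAT the second one. CTTTGTA was the third form and CTTTGTT the last one. Of 32851 mouse promoter windows, 16.9% held at least 1 of them. Among the 13 windows 3 did, those of Fyn, Lcp2 and the second window of Ptpn22, and they are shown with the match in capitals. The first window of Themis, which was lower in lymphomas at all 4 of its probe sets, holds no match and is shown for comparison. The windows are chr10:39369549-39369848 for Fyn, chr11:34046678-34046977 for Lcp2, chr3:103860027-103860326 for Ptpn22 and chr10:28668110-28668409 for Themis, all on the plus strand and written 5′ to 3′.
Fyn: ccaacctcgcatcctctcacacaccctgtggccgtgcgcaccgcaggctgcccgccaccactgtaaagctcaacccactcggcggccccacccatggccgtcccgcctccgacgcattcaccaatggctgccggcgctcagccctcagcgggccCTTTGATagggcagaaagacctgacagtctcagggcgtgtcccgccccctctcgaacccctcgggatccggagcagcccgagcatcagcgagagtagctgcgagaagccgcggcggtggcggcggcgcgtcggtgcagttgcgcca
Lcp2: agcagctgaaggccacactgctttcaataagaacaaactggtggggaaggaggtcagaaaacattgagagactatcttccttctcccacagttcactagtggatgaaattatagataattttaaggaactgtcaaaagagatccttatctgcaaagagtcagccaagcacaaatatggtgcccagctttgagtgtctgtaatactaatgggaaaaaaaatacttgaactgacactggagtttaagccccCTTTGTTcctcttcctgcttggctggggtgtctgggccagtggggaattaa
Ptpn22: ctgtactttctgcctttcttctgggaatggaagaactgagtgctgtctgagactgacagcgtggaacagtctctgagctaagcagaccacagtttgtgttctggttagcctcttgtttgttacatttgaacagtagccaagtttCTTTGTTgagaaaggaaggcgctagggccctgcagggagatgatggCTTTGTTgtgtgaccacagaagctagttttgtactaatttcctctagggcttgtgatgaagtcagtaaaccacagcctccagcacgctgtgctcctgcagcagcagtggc
Themis: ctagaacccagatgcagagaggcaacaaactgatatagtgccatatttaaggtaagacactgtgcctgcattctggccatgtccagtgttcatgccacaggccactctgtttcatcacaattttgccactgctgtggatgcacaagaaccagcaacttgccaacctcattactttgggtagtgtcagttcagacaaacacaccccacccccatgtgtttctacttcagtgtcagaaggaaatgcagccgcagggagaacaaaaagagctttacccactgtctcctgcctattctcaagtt
In Lcp2 the match begins at base 250 of the window, the last before the start. In Fyn it begins at base 155, and in Ptpn22 the matches begin at bases 145 and 191. The letters are thus present in a gene that was lower before transformation, in 1 that was higher and in 1 that did not pass. A match shows letters in a window and not binding. Of the other letters searched on both strands, TGTGGT (RUNX) was in 3 of the 13 windows and in 16.8% of all. The E-box letters, CAGCTG as well as the form CACCTG, were in 5 and in 32.9% of all. The ETS letters, CCGGAAG as well as the form AGGAAG, were in 7 and in 41.2% of all.

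The kinases were Zap70, the Syk-family kinase that carries the signal from the receptor to the adaptors, and Fyn, a Src-family kinase that phosphorylates the receptor chains. For Zap70 the log2 signals were 10.67, 10.60, 10.26, 10.66 and 10.49 in controls 1 to 5. Before transformation they were 11.29, 11.08, 11.08, 11.05 and 11.13. Over the 8 lymphomas they ran from 10.60 over a median of 10.74 to 10.92. Every mouse before transformation thus lay above every control and every lymphoma, and lymphomas overlapped with controls. Zap70 was 1.51-fold higher before transformation than in controls (0.59 ± 0.09, adjusted p = 0.00112). In lymphomas it was 1.29-fold lower than before transformation (-0.37 ± 0.08, adjusted p = 0.00364). Against controls the lymphomas differed by 0.22 ± 0.09, which did not pass (adjusted p = 0.0672).

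The second Zap70 probe set, 1440178_x_at, whose suffix marks probes that can also match other transcripts, followed the same course, with differences of 0.56 ± 0.08 before transformation against controls (adjusted p = 0.000511) and -0.38 ± 0.09 in lymphomas against mice before transformation (adjusted p = 0.00374). The dimmer 1439749_at passed in none of the 3 comparisons (0.16, 0.09 and 0.25). In mice 3 and up alone it was higher in lymphomas than in controls (0.42, adjusted p = 0.016). The scaling of the arrays changed calls of Zap70. After quantile normalization the fall from before transformation to lymphoma no longer passed (-0.23, adjusted p = 0.0656) and Zap70 was higher in lymphomas than in controls (0.36, adjusted p = 0.00747). After median centring the fall was -0.29 (adjusted p = 0.125).

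Fyn was the 1 gene of the 10 that was lower in both CD4Cre-Ctnnbex3 groups than in controls. Controls 1 to 5 had log2 signals of 10.54, 10.43, 10.54, 10.75 and 10.71. Before transformation the values were 9.74, 9.43, 10.20, 9.51 and 9.52. Lymphomas ran from 7.29 over a median of 8.87 to 9.48. No control overlapped with any other mouse, while the brightest lymphoma lay just above the dimmest mouse before transformation. Fyn fell by 0.92 ± 0.14 before transformation, 1.89-fold (adjusted p = 0.00106), and was 4.08-fold lower in lymphomas than in controls (-2.03 ± 0.33, adjusted p = 0.000231). The probe set 1448765_at gave -1.12 ± 0.12 (adjusted p = 8.05e-05) and -1.69 ± 0.25 (adjusted p = 0.000113) for the same comparisons. The further difference between lymphomas and mice before transformation was less firm. It was -1.11 ± 0.35 at the brighter probe set (adjusted p = 0.0207, and 0.0579 without mouse 3 before transformation) and -0.58 ± 0.27 at the other (adjusted p = 0.104).

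The adaptors were Lat, the membrane scaffold that ZAP-70 phosphorylates, Lcp2, which encodes SLP-76, Themis, a thymocyte protein needed for positive selection, and Sh2d1a, which encodes SAP, the adaptor of SLAM-family receptors that recruits FYN. Lat was the most uniform of the 10 within the controls and within the lymphomas. Its log2 signals were 12.57, 12.56, 12.56, 12.54 and 12.53 in controls, an SD of 0.016 that 0.726% of tested probe sets undercut. Before transformation they were 12.73, 12.66, 12.30, 12.70 and 12.58, on both sides of the controls, and the difference of 0.04 ± 0.08 did not pass (adjusted p = 0.86). The 8 lymphomas ran from 11.49 over a median of 11.66 to 11.75, all below every other mouse. Lat was 1.94-fold lower in lymphomas than before transformation (-0.96 ± 0.08, adjusted p = 2.57e-06) and 1.89-fold lower than in controls (-0.92 ± 0.06, adjusted p = 4.11e-08). Both calls held in every alternative tried.

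For Lcp2 the brighter probe set read 11.23, 11.20, 11.36, 11.30 and 11.27 in controls and 11.76, 11.66, 11.46, 11.78 and 11.74 before transformation. Lymphomas ran from 10.27 over a median of 10.97 to 11.38. All mice before transformation lay above all controls and all lymphomas. The rise before transformation was 0.41 ± 0.07 (adjusted p = 0.00348) and the fall to lymphoma was -0.84 ± 0.17 (adjusted p = 0.00132). In mice 3 and up alone the rise did not pass (0.35, adjusted p = 0.0798). Against controls the lymphomas were lower by a small margin (-0.43 ± 0.16, adjusted p = 0.0421). That call was lost without any 1 of the 5 controls or without lymphoma 5, 6 or 7, with adjusted p from 0.0555 to 0.0904, and after quantile normalization (0.0918) or median centring (0.171). The difference was -0.07 in mice 1 and 2 alone (adjusted p = 0.764) and -0.57 in mice 3 and up alone (adjusted p = 0.0371). The dimmer Lcp2 probe set, 1418642_at, did not pass before transformation against controls (0.12, adjusted p = 0.63). In lymphomas it moved the other way, by 0.25 ± 0.09 against mice before transformation (adjusted p = 0.0403) and by 0.37 ± 0.11 against controls (adjusted p = 0.0131). The first of these was lost without any 1 of 4 mice before transformation (1, 3, 4 or 5) or any 1 of 5 lymphomas (1, 3, 4, 5 or 8), with adjusted p from 0.0548 to 0.0963. Neither passed in mice 1 and 2 alone (0.15 and 0.11, adjusted p of 0.548 and 0.59). Both did in mice 3 and up alone (0.31 and 0.53, adjusted p of 0.0174 and 0.00249).

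Themis was lower in lymphomas than in both other groups at all 4 of its probe sets. At the brightest probe set controls read 11.94, 11.98, 12.12, 12.00 and 11.85. Mice before transformation read 12.56, 12.46, 11.81, 12.32 and 12.26, and lymphomas ran from 8.55 over a median of 10.41 to 11.09. All lymphomas lay below all other mice, and mouse 3 before transformation alone lay below the controls. Lymphomas were 3.89-fold lower than mice before transformation (-1.96 ± 0.34, adjusted p = 0.000479) and 3.15-fold lower than controls (-1.65 ± 0.32, adjusted p = 0.000961). The probe set 1443192_at showed a 10.7-fold fall from before transformation (-3.41 ± 0.41, adjusted p = 2.69e-05) and a 6.69-fold fall from controls (-2.74 ± 0.40, adjusted p = 9.26e-05). Before transformation the brightest probe set differed from controls by 0.31 ± 0.12, which did not pass (adjusted p = 0.158), and without mouse 3 it did (0.42, adjusted p = 0.00569). The other 3 Themis probe sets were higher by 0.61 to 0.70, with adjusted p of 0.00366, 0.00712 and 0.0248. The last of these, for 1439719_at, was lost in 5 of the 10 fits that leave out 1 mouse (adjusted p from 0.0584 to 0.0675). In mice 3 and up alone 1443192_at did not pass (adjusted p = 0.0635), nor did 1442022_at (0.0586) and 1439719_at (0.0846) in mice 1 and 2 alone. With all 3 groups in 1 fit none of these 3 calls was made (adjusted p of 0.456 for 1443192_at and 0.23 for 1442022_at).

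Sh2d1a lies on the X chromosome. Controls read 11.01, 10.94, 10.78, 10.39 and 10.52, and mice before transformation read 10.59, 10.65, 9.89, 9.62 and 10.16. Lymphomas ran from 6.02 in number 3 over a median of 8.76 to 9.96, and the groups before transformation and with lymphoma overlapped. The difference of -0.55 ± 0.20 before transformation did not pass (adjusted p = 0.116), although it did without mouse 2 (-0.67, adjusted p = 0.0471), with mice 1 and 2 against the rest as a factor (adjusted p = 0.00851) and in mice 3 and up alone (-0.68, adjusted p = 0.0424). Lymphomas were 4.35-fold lower than controls (-2.12 ± 0.53, adjusted p = 0.00513). Against mice before transformation they were 2.98-fold lower (-1.57 ± 0.54, adjusted p = 0.0339), a call lost without mouse 1, 2, 3 or 5 before transformation or without lymphoma 6 or 8 (adjusted p from 0.0504 to 0.077), and after median centring (adjusted p = 0.0569).

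The enzymes downstream of the adaptors were Plcg1, the phospholipase that makes inositol trisphosphate and diacylglycerol, Prkcq, protein kinase C theta, and Rasgrp1, which activates Ras when it binds diacylglycerol. Plcg1 at its brightest probe set read 10.73, 10.65, 10.82, 10.76 and 10.47 in controls and 10.69, 10.42, 10.52, 10.71 and 10.45 before transformation. Lymphomas ran from 9.75 over a median of 9.97 to 10.17, below every other mouse. The first 2 groups overlapped, with a difference of -0.13 ± 0.09 (adjusted p = 0.465). Lymphomas were 1.5-fold lower than mice before transformation (-0.58 ± 0.09, adjusted p = 0.00033) and 1.64-fold lower than controls (-0.71 ± 0.09, adjusted p = 2.8e-05). A dim second probe set, 1442963_at, fell by 0.61 ± 0.13 from before transformation to lymphoma (adjusted p = 0.00249). It did not pass in the comparisons with controls (0.43, adjusted p = 0.0566, before transformation and -0.19, adjusted p = 0.276, in lymphomas). The first of these passed after quantile normalization (adjusted p = 0.0276) or median centring (0.0366), without an intensity trend in the fit (0.0448), with mice 1 and 2 against the rest as a factor (0.0398), and without control 4 (0.0392) or mouse 2 before transformation (0.024). The third, 1450360_at, was at or near the floor of 5.74 in most mice, was not tested, and reached its highest value of 6.93 in lymphoma 7.

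Prkcq was highest before transformation and lowest in lymphomas. Its 1 probe set read 10.76, 10.70, 10.25, 10.36 and 10.45 in controls. Before transformation it read 11.64, 11.55, 10.87, 11.16 and 11.15. Lymphomas ran from 9.03 over a median of 9.73 to 10.21. The 3 groups did not overlap. Prkcq was 1.70-fold higher before transformation than in controls (0.77 ± 0.15, adjusted p = 0.00625). In lymphomas it was 3.09-fold lower than before transformation (-1.63 ± 0.20, adjusted p = 3.02e-05) and 1.81-fold lower than in controls (-0.86 ± 0.18, adjusted p = 0.00176).

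Rasgrp1 at its brightest probe set read 11.91, 11.89, 11.92, 11.90 and 11.95 in controls and 12.85, 12.71, 12.24, 12.46 and 12.42 before transformation. Lymphomas ran from 10.66 over a median of 11.59 to 12.21. All mice before transformation lay above the controls and the lymphomas. The rise was 1.54-fold (0.62 ± 0.10, adjusted p = 0.00196) and the fall to lymphoma 2.06-fold (-1.04 ± 0.20, adjusted p = 0.00114). All 4 probe sets were higher before transformation, by 0.62 to 0.81, although 1421176_at was lost without control 4 or without mouse 3 before transformation (adjusted p of 0.0529 and 0.0503). Of the 4, 3 were lower in lymphomas than before transformation, and 1421176_at was not (-0.39, adjusted p = 0.0992), although it passed without lymphoma 1 (-0.47, adjusted p = 0.0259). Against controls the lymphomas did not differ past the threshold at the brightest probe set (-0.42, adjusted p = 0.0844), but did without lymphoma 1 (-0.52, adjusted p = 0.0149). At 1431749_a_at they did (-0.59, adjusted p = 0.0346), a call lost without control 2, 3, 4 or 5 or lymphoma 6 or 8 (adjusted p from 0.0516 to 0.0804). The remaining 2 probe sets lay above 0, 1450143_at at 0.07 (adjusted p = 0.814) and 1421176_at at 0.31 (adjusted p = 0.259), so the 4 did not share a direction in this comparison.

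The inhibitor was Ptpn22, a tyrosine phosphatase that dephosphorylates Src-family kinases and ZAP-70. It read 10.26, 10.18, 10.32, 10.31 and 10.33 in controls and 9.97, 9.97, 10.94, 10.14 and 10.14 before transformation. Mouse 3 thus lay above all controls and the other 4 mice below them. The group difference was -0.05 ± 0.16 (adjusted p = 0.925). Without mouse 3 it was -0.22 (adjusted p = 0.0819). Lymphomas ran from 6.38 over a median of 8.57 to 9.82 and did not overlap with either group. They were 3.84-fold lower than mice before transformation (-1.94 ± 0.48, adjusted p = 0.00586) and 3.97-fold lower than controls (-1.99 ± 0.46, adjusted p = 0.00331).

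**Figure D3:**
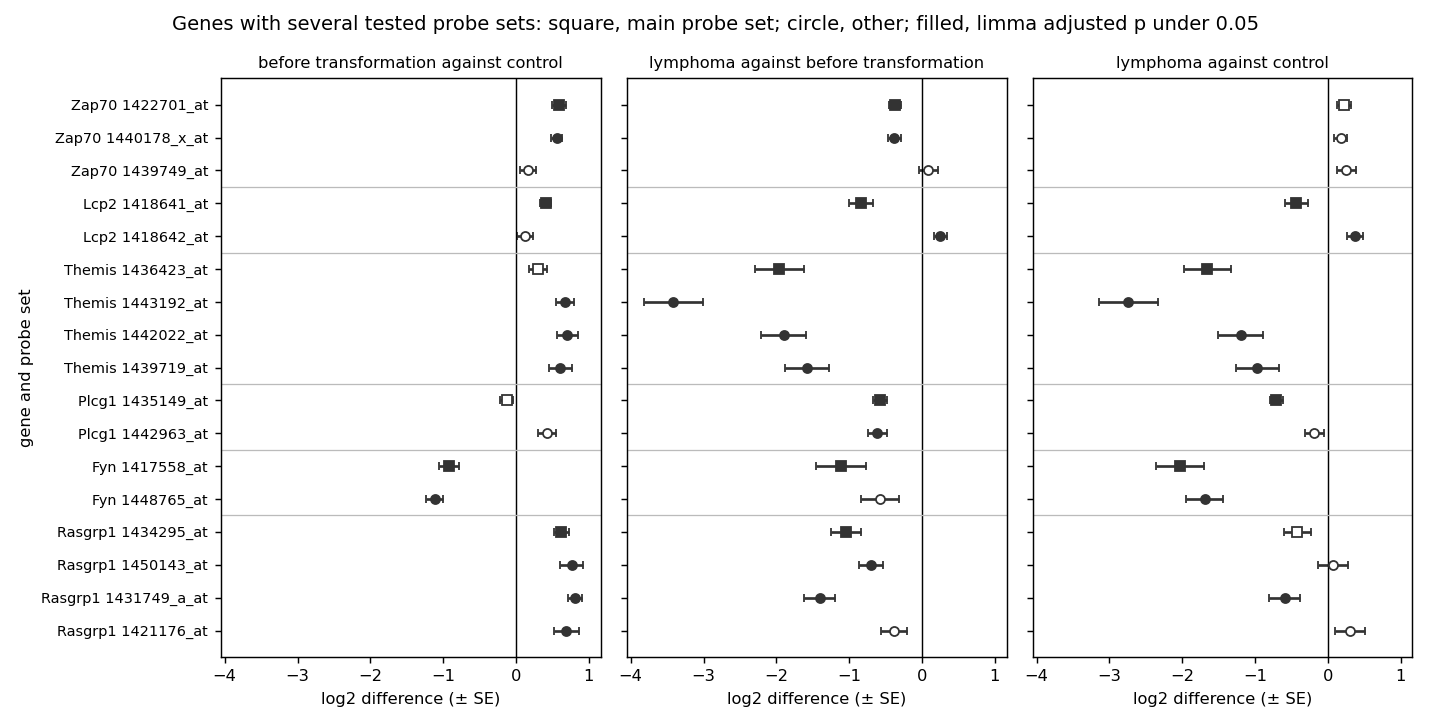
Log2 difference ± SE of all tested probe sets of the 6 genes with more than 1, with squares for the brightest and circles for the others; filled symbols passed a limma adjusted p of 0.05. The probe sets of Themis and Fyn lie on 1 side of 0 within each comparison, while the 2 Lcp2 probe sets lie on opposite sides in lymphomas.

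The tumours differed among themselves far more for some genes than for others. The SD over the 8 lymphomas was 0.087 for Lat, 0.12 for Zap70 and 0.12 for Plcg1, and 1.03%, 3.35% and 4.27% of the tested probe sets had a smaller one. It was 1.33 for Sh2d1a, 1.17 for Ptpn22, 0.83 for Fyn and 0.82 for Themis, with 99.4%, 98.9%, 96.2% and 96% of probe sets below. The median SD of all tested probe sets was 0.31. No single tumour held all extremes. Lymphoma 6 was the lowest for Lcp2, Themis, Prkcq, Plcg1, Fyn and Rasgrp1 and the highest for Zap70, and it also had the lowest sum of T-lineage markers. Its array had the lowest spike-in mean of all arrays, 9.31. Lymphoma 1 was the lowest for Ptpn22 and the highest for Lcp2 and Rasgrp1, and lymphoma 3 was the lowest for Lat and Sh2d1a. Before transformation, mouse 3 was the lowest for Lat, Lcp2, Themis, Prkcq and Rasgrp1 and the highest for Fyn and Ptpn22. It had the lowest sums of its group for T-lineage markers and for stroma and vessels. Its sums were the highest of the group for B-cell, myeloid, granulocyte, natural killer and gamma delta T, and erythroid markers.

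**Figure D4:**
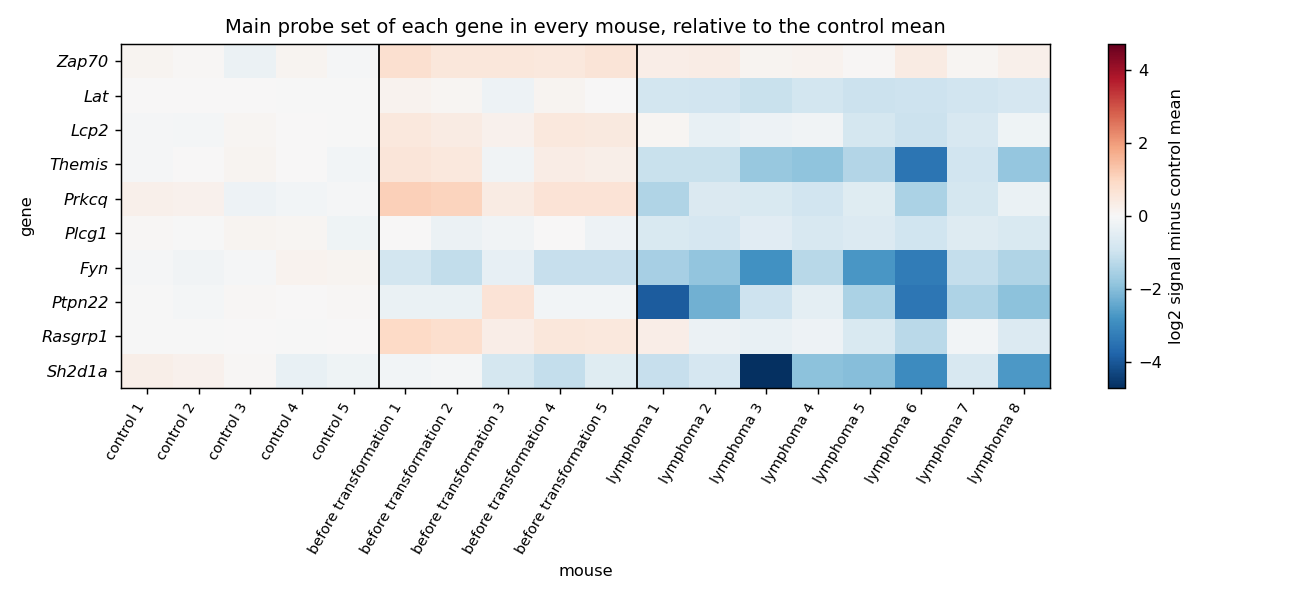
Log2 signal of each gene's brightest probe set in every mouse minus the control mean of that gene (red above, blue below). Zap70 lies above the control mean in all mice with the Ctnnb1 allele, and the darkest blue is seen for Sh2d1a in lymphoma 3, Ptpn22 in lymphoma 1 and Ptpn22 and Themis in lymphoma 6.

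Around these genes, 80 further genes of the pathway had a probe set used here, out of 91 listed, and 78 were tested. Before transformation 12 of the 78 were higher and 18 lower than in controls, with a median difference of -0.14, beside 4.47% of all genes called higher and 6.33% lower. In lymphomas 4 were higher and 29 lower than before transformation (median -0.39), beside 16.1% and 18.5% of all genes. Against controls 4 were higher and 42 lower (median -0.56), beside 17.3% and 22.7%. With all 3 groups in 1 fit, several calls before transformation named below were lost: those of Syk (adjusted p = 0.0515), Txk (0.65), Tec (0.118), Cd247 (0.0943), Skap1 (0.32), Sit1 (0.14), Cd6 (0.0682), Sla2 (0.169), Nfatc3 (0.21), Itpr3 (0.111), Rasa1 (0.301) and Itm2a (0.435). With sex as a factor, calls between lymphomas and mice before transformation were lost for Cd3g (adjusted p = 0.0935), Nck2 (0.1), Skap1 (0.0838), Tespa1 (0.0548), Dgka (0.136), Itpr2 (0.0875), Stim1 (0.076), Rasa1 (0.219) and Egr3 (0.294).

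At the receptor, the list of kinases and CD3 chains had 8 tested members. Before transformation 2 were higher and 4 lower, beside 4.47% and 6.33% of all genes. Cd3e, Cd3d, Cd3g and Cd247 of this list are also T-lineage markers above, as is Cd5 of the inhibitors, so these counts share genes. Syk, the relative of Zap70, was 2.01-fold higher before transformation than in controls (1.01 ± 0.12, adjusted p = 0.000167) and 2.20-fold higher in lymphomas than in controls (1.14 ± 0.30, adjusted p = 0.00789, and 0.0691 in mice 3 and up alone). The Tec-family kinase Txk was higher before transformation (0.39, adjusted p = 0.00878), and its relative Tec was lower (-0.80, adjusted p = 0.00353). In mice 3 and up alone neither passed (adjusted p of 0.094 and 0.0592), nor did Cd247 (0.0711), and Txk was also lost after median centring (0.0512). In lymphomas Txk was 5.79-fold lower than before transformation (-2.53 ± 0.32, adjusted p = 4.67e-05). The receptor chains fell at both steps for Cd247, the zeta chain, by 0.51 ± 0.10 before transformation (adjusted p = 0.00639) and by a further 1.59 ± 0.18 in lymphomas (adjusted p = 1.76e-05). Cd3e and Cd3g were lower in lymphomas than before transformation (-1.26 ± 0.13, adjusted p = 9.22e-06, and -0.92 ± 0.13, adjusted p = 0.000103), as was Cd3d (-1.33, adjusted p = 0.00154). Cd3g and Cd3d were also lower before transformation than in controls (-0.37, adjusted p = 0.0149, and -0.30, adjusted p = 0.0156). There Cd3e did not pass (-0.34, adjusted p = 0.0578).

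Of 16 adaptors and scaffolds, 3 were higher and 3 lower before transformation, beside 4.47% and 6.33% of all genes. Nck2, which links the receptor to the actin machinery, was higher (0.82 ± 0.09, adjusted p = 8.36e-05), as were Tespa1 (0.50, adjusted p = 0.00109) and Skap1, an adaptor that acts on integrins (0.45, adjusted p = 0.00294). In mice 1 and 2 alone Tespa1 (adjusted p = 0.0521) and Skap1 (0.0739) did not pass. Vav2, an exchange factor, was lower (-1.13 ± 0.10, adjusted p = 1.78e-05). In lymphomas these 3 raised genes were all lower than before transformation: Nck2 by -1.37, Tespa1 by -1.0 and Skap1 by -1.65, with adjusted p of 0.000376, 4.21e-05 and 7.88e-05. The 3 were picked as high in the mice that serve as the reference here, which favours a fall. Of all 16, 1 was higher and 6 were lower in lymphomas than before transformation, beside 16.1% and 18.5% of all genes. Grap2, which encodes GADS and joins SLP-76 to LAT, differed by 0.57 before transformation (adjusted p = 0.0861). It passed there with mice 1 and 2 against the rest as a factor (adjusted p = 0.0115), in mice 3 and up alone (0.0448), after quantile normalization (0.0464) and with sex as a factor (0.00757). Grap2 was 2.53-fold lower in lymphomas than before transformation (-1.34 ± 0.24, adjusted p = 0.000724). Themis2, the relative of Themis, passed in none of the 3 comparisons (-0.19, 0.68 and 0.49), although it did without lymphoma 1 against mice before transformation (adjusted p = 0.0296).

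Among 18 inhibitors, 3 were higher and 4 lower before transformation, beside 4.47% and 6.33% of all genes. In lymphomas 10 were lower than in controls and none was higher, beside 22.7% and 17.3%. Against mice before transformation 8 were lower and 1 was higher, beside 18.5% and 16.1%. Dgka, a kinase that removes diacylglycerol, was higher before transformation (0.78 ± 0.10, adjusted p = 0.000414), as was Sit1 (0.64, adjusted p = 0.006), and both were lower in lymphomas than before transformation (-0.85, adjusted p = 0.000141, and -1.68, adjusted p = 0.000143). Cd6, a surface receptor, was lower before transformation (-0.82 ± 0.08, adjusted p = 4.73e-05), and so was Sla2 (-0.68, adjusted p = 0.00061), which was 6.59-fold lower in lymphomas than in controls (-2.72 ± 0.27, adjusted p = 2.67e-06). Dgkz, the second diacylglycerol kinase listed, was 2.94-fold lower in lymphomas than in controls (-1.55 ± 0.17, adjusted p = 8.42e-06). Cbl and Lax1 were lower there too (-1.23, adjusted p = 8.06e-06, and -1.24, adjusted p = 9.91e-06), and Dok2 was lower in lymphomas than before transformation (-1.06, adjusted p = 2.91e-05).

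Of 15 genes of the calcium and NF-κB arm, 1 was higher and 1 lower before transformation, Nfatc3 (0.54, adjusted p = 0.0119) and Itpr3 (-0.60, adjusted p = 0.00938), a count near the 10.8% of all genes called. Nfatc3 was lost after median centring (adjusted p = 0.0554), with sex as a factor (0.0563) and in mice 3 and up alone (0.151). Itpr3 was lost in mice 1 and 2 alone (0.0597) and in mice 3 and up alone (0.0624). In lymphomas 4 were lower than before transformation and none was higher, fewer than the 34.7% called among all genes, with Nfatc3 at -1.41 (adjusted p = 0.000379) and the inositol trisphosphate receptor Itpr2 at -0.88 (adjusted p = 0.000375). The calcium sensor Stim1 was lower in lymphomas than in both other groups (-0.48, adjusted p = 0.00476, and 0.297 in mice 1 and 2 alone, against mice before transformation, and -0.75, adjusted p = 8.08e-05, against controls). Plcg2, the relative of Plcg1, and Prkcd passed in no comparison. Prkch, the relative of Prkcq, differed by -0.87 before transformation (adjusted p = 0.0885), and without mouse 3 it was lower (adjusted p = 0.000128). Plcg2 was past the threshold in lymphomas against controls without lymphoma 1 or 2 (adjusted p of 0.0395 and 0.0419), and after quantile normalization (0.46, adjusted p = 0.0135) or median centring (0.40, adjusted p = 0.0124). It also passed there in mice 3 and up alone (0.55, adjusted p = 0.00463).

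In the Ras arm, 2 of 8 tested genes were higher before transformation and none lower, beside 4.47% and 6.33% of all genes. In lymphomas 1 of the 8 was lower than before transformation and none higher, where 34.7% of all genes were called, and 1 was higher and 3 lower than in controls, where 40% were called. Rasgrp4, a relative of Rasgrp1, was at least 5.05-fold higher than in controls, of which 3 of 5 were at the floor (adjusted p = 5.63e-05), and at least 3.66-fold higher in lymphomas than in controls (adjusted p = 0.000254). Rasa1, a Ras GTPase activator, was higher before transformation (0.51, adjusted p = 0.00645) and 2.68-fold lower in lymphomas than before (-1.42 ± 0.25, adjusted p = 0.0005). Rasgrp2 passed in no comparison (-0.14, 0.05 and -0.09), and Rasgrp3, with means of 5.99 to 6.26, was too dim to be tested.

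In the SLAM family, whose tails bind the product of Sh2d1a, Slamf6 was 2.54-fold higher before transformation than in controls (1.34 ± 0.16, adjusted p = 0.000199) and 1.90-fold higher in lymphomas than in controls (0.92, adjusted p = 5e-05). Slamf1 was 7.58-fold lower in lymphomas than before transformation (-2.92 ± 0.29, adjusted p = 8.21e-06) and 11.6-fold lower than in controls (-3.53 ± 0.27, adjusted p = 2.01e-07), with 2 of 8 tumours at the floor. Of the 8 genes that receptor signalling is known to induce, 5 were lower before transformation and none higher, beside 6.33% and 4.47% of all genes. Among them were Egr1 (-1.09, adjusted p = 0.00492), its corepressor Nab2 (-1.72, adjusted p = 0.00832) and Itm2a (-0.65, adjusted p = 0.0164). Egr1 did not pass in mice 1 and 2 alone (adjusted p = 0.101), nor Nab2 and Itm2a in mice 3 and up alone (0.127 and 0.124). Egr2 was also lower (-1.34, adjusted p = 0.0283), a call lost without any 1 of controls 1, 2, 3 and 5 or of mice 1, 4 and 5 before transformation (adjusted p from 0.0544 to 0.0702). In lymphomas 7 of the 8 were lower than in controls and 1 was higher, beside 22.7% and 17.3%. Against mice before transformation 1 was higher and 1 lower, where 34.7% of all genes were called. Egr3 was higher (0.48, adjusted p = 0.00245, and 0.209 in mice 1 and 2 alone) and Cd69 was lower (-1.29, adjusted p = 0.0271). The Cd69 call was lost in mice 3 and up alone (0.13) and in 3 of the 13 fits that leave out 1 mouse. Over all alternatives its difference ran from -1.62 to -0.21, and its adjusted p reached 0.901.

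The genes whose pattern over the 18 arrays came closest to each of the 10 were found by the root mean square of the differences after each gene's own mean was subtracted. For Lat it was Cd8b1, which encodes the CD8 beta chain, at 0.13 on the log2 scale, and for Fyn it was Cd6, at 0.35. For Plcg1 it was Zfp687 at 0.087, for Lcp2 H13 at 0.17, for Rasgrp1 Rnf145 at 0.17 and for Zap70 4930425O10Rik at 0.14. Themis was closest to Zfp280d at 0.29, Prkcq to Cflar at 0.30, Ptpn22 to Gimap8 at 0.37 and Sh2d1a to the chromatin organiser Satb1 at 0.49.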

How the data were processed

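Total RNA of 18 mouse samples was hybridised as biotin-labelled cRNA to Affymetrix mouse expression arrays, per the labels' protocols. The deposited table gives linear intensities of 45101 probe sets. According to the series design text the authors used dChip to compute them, and the sources used here state neither its version nor how arrays were modelled and scaled. Blank (9775 of 811818) and low values were raised to a floor of 53.5, the 20th percentile, before log2 was taken (floor 5.74). Array medians lay between 125 and 166 in intensity, a log2 range of 0.45; arrays were to be rescaled only above 0.5, and were not. The array of control 1 held 605 of the 606 negative values.

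Groups came from the sample titles. Probe sets with 1 symbol in the platform annotation and an intensity over 109 (the 40th percentile) on at least 5 arrays were tested. Each comparison was fitted on its 2 groups with limma 3.58.1 in R 4.3.3 (intensity trend in eBayes, Benjamini-Hochberg adjustment over 24364 probe sets, threshold 0.05), and the fitting was tested on simulated data. The precision is limited by the number of arrays. The 10 genes, the pathway and marker lists and the tests were chosen with earlier results of these data known. All probe sets of the 10 genes are reported. Of the other pathway genes, those named are relatives of a member or among the 4 with the smallest adjusted p of their list in a comparison. Cd3d is named in addition, beside the other receptor chains. The most alike gene had to have an SD of at least 0.5 times that of the member. A fold is a lower bound where the dimmer group had at least 3 of 5 mice, or 4 of 8, at the floor. Alternatives changed the scaling, floor, filter, probe set rule, fit and mice; leaving out control 1, mouse 3 before transformation and lymphoma 4 together was chosen after seeing the data.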

Additional observations from a re-analysis of the deposited data

Results flagged for a closer look

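Within each group of each tested probe set the highest and lowest mouse were compared with the rest by Dixon's ratio of gap to range, in 63 groups of 5 or 8 mice. Chance puts about 1 in 20 groups past the 95% critical value, and 5 of the 63 were past it. Lymphoma 6 stood below the other 7 tumours at 3 of the 4 Themis probe sets, with log2 signals of 8.55 at 1436423_at, 7.28 at 1442022_at and 7.17 at 1439719_at, and these probe sets measure 1 gene. For Ptpn22, mouse 3 before transformation had a log2 signal of 10.94, above the 9.97 to 10.14 of the other 4. Mouse 2 before transformation stood above its group for Rasgrp1 at 1450143_at, at 11.21, where the other 4 mice lay between 11.07 and 11.09.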

How the results depend on the processing

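With 1 probe set per gene, 5, 10 and 8 of the 10 genes were called before transformation against controls, in lymphomas against mice before transformation and in lymphomas against controls, beside 13, 18 and 14 of 21 probe sets. With all 3 groups in 1 fit the first of these was 6, and the other pathway genes called before transformation went from 30 to 14. Mice 3 and up alone gave 19 of them. With sex as a factor, lymphomas against mice before transformation gave 3 probe sets of the 10 genes and 12 other pathway genes in place of 33. Leaving out 1 mouse at a time gave 12 to 15, 15 to 18 and 12 to 15 probe sets of the 10 genes, and 25 to 33, 28 to 36 and 43 to 49 other pathway genes. Under the remaining settings these counts stayed within 1.5 times those reported. All 13, 18 and 14 calls kept their direction under every alternative run, and 5, 2 and 10 of them passed the threshold under every one. Among all called probe sets, the share that was higher in lymphomas than before transformation was 44.2% as deposited, 55.8% after quantile normalization and 54.6% after median centring, and against controls 41.4%, 55.3% and 53.1%.

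Shared mouse numbers did not pair the mice: correlations of the deviations of same-numbered mice ran from -0.11 to 0.39, and most mice did not correlate best with their own number. With the number as a replicate block 14, 17 and 12 probe sets of the 10 genes were called, and 32, 38 and 46 other pathway genes. Before transformation Sh2d1a (adjusted p = 0.0163) and Grap2 (adjusted p = 0.0352) passed against controls with that block.

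The differences that changed sign passed neither as reported nor in the setting that changed their sign, and the cause was not tested. For Syk, Plcg2 and Zap70 (1439749_at) the other set of mouse numbers did pass, as given below. Before transformation against controls, Lat was -0.021 after quantile normalization and -0.021 in mice 3 and up alone, and Lcp2 (1418642_at) was -0.036 in mice 1 and 2 alone. Ptpn22 was 0.085 in mice 3 and up alone and between -0.22 and 0.019 when 1 mouse was left out. Plcg2 was -0.36 in mice 1 and 2 alone, -0.062 without control 1, mouse 3 before transformation and lymphoma 4, and between -0.059 and 0.071 when 1 mouse was left out, and Rasgrp2 was 0.024 in mice 3 and up alone. In lymphomas against mice before transformation, mice 1 and 2 alone gave -0.32 for Zap70 (1439749_at) and -0.082 for Prkcd, and mice 3 and up alone gave -0.079 for Syk and -0.17 for Rasgrp2. Syk was 0.77 in mice 1 and 2 alone (adjusted p = 0.0492). Rasgrp2 was -0.099 with sex as a factor and between -0.011 and 0.15 when 1 mouse was left out. In lymphomas against controls, mice 1 and 2 alone gave -0.19 for Zap70 (1439749_at), 0.017 for Rasgrp1 (1434295_at), -0.10 for Themis2, -0.27 for Plcg2 and 0.085 for Rasgrp2. Mice 3 and up alone gave 0.42 for Zap70 (1439749_at, adjusted p = 0.016) and 0.55 for Plcg2 (adjusted p = 0.00463). Rasgrp1 (1450143_at) lay between -0.099 and 0.16 when 1 mouse was left out, and Rasgrp2 was 0.036 after quantile normalization. Prkcd was 0.12 after quantile normalization, 0.063 after median centring, 0.11 in mice 3 and up alone and between -0.077 and 0.025 when 1 mouse was left out. With 5 to 8 arrays per group and low signals set to the floor, small differences and those of dim probe sets could not be resolved.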
